A study of Mus musculus with 9 samples.

Results

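The genes described here are 40 genes of the synapse, measured as RNA in embryonic mouse cortex at E13.5 (days of gestation). They were taken by name: proteins of the synaptic vesicle and its release machinery, the active zone, adhesion across the synaptic cleft, the postsynaptic scaffold, glutamate receptors and the vesicular glutamate transporters. All 40 were found among the 35498 genes to which transcripts were summed, and all 40 were among the 15773 genes tested. The study targets Smarca1 and Smarca5, the ATPases of ISWI chromatin remodellers, in the developing neocortex. There were 3 groups of 3 libraries of whole cortical tissue, all from C57Bl/6 embryos. Wild type (WT) was Smarca1 +/+; Cre -/-, the Smarca1 knockout (Smarca1 KO) was Smarca1 -/-; Cre -/-, and the double knockout (DKO) was Smarca1 -/-; Cre +/-, named by the series' design text as lacking Smarca5 and Smarca1. Of these groups the DKO alone carried Cre, so the loss of Smarca5 and the presence of Cre cannot be told apart. The sources used here do not give the driver of Cre, the exons removed, the Smarca5 alleles of the other groups, or whether replicates are separate embryos. The p-values therefore speak only to the spread among these samples, and that may be technical.

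At a synapse, an electrical impulse opens calcium channels of the presynaptic terminal, and a vesicle filled with transmitter fuses with the membrane through a complex of SNARE proteins. The active zone is the protein lattice that holds vesicles and channels at the release site, neurexins and neuroligins join the 2 cells across the cleft, and receptors on the other side sit in a scaffold of PSD-95, Shank and Homer proteins. The embryonic cortex at this age holds dividing progenitors and newborn neurons that have formed few synapses, and the RNA of many synaptic genes is already made as neurons leave the cell cycle. ISWI ATPases slide and space nucleosomes along DNA.

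Counts summed over genes were between 27466225 and 46007718 per library. Smarca5 RNA was 84.4, 79.2 and 77.2 CPM (counts scaled to a common library total, with edgeR's TMM correction) in the DKO libraries, 245.8, 243.1 and 212.2 CPM in those of Smarca1 KO and 267.4, 270.7 and 262.0 CPM in those of WT, a log2 fold change of −1.73 in DKO against WT (SE 0.061, adjusted p = 2.05e-06). Smarca1 RNA was 37.9 to 38.8 CPM in the DKO libraries, 35.3 to 43.8 CPM in those of Smarca1 KO and 36.4 to 37.8 CPM in those of WT, so the sum over this gene's transcripts, with the removed exons unknown here, does not check the Smarca1 labels. Markers of neurons, radial glia, intermediate progenitors and projection neurons, the cells of the labelled tissue, were above 0 in every library. The libraries stood apart in markers of the meninges: the summed level of 8 such genes was 842 CPM in Smarca1 KO replicate 1 and 920 CPM in DKO replicate 1, against 377 to 455 CPM in the other libraries of those groups and 590 to 705 CPM in WT.

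All synaptic genes had RNA in WT cortex at this age, over a wide range of levels. On the TPM scale, which corrects for transcript length and allows genes to be compared, the WT mean of the 40 genes ran from 6.18 to 179 TPM, with a median of 31.8 TPM. The 7 genes above 100 TPM were Vamp2 (179 ± 2.305, SD, n = 3), the vesicle SNARE, Syt11 (169 ± 2.04), a synaptotagmin of membrane traffic, Dlg4 (164 ± 9.35), which encodes the scaffold PSD-95, Rab3a (134 ± 6.78), a vesicle GTPase, the AMPA receptor subunit Gria2 (116 ± 7.23), the neurexin Nrxn2 (114 ± 6.60) and the neuroligin Nlgn2 (114 ± 3.42). The 5 genes under 10 TPM were Vamp1 (8.54 ± 0.379), Grin1 (8.64 ± 0.0672), Rims1 (7.21 ± 0.816), Grin2b (6.21 ± 0.501) and the vesicle glycoprotein Sv2b (6.18 ± 0.282). In WT the AMPA receptor subunits Gria2 and Gria1 (24.0 ± 2.78 TPM) were thus above both NMDA receptor subunits, Grin1 and Grin2b, by TPM. The order of Gria1 and Grin2b rests on the correction for length, as their WT means were 71.2 and 79.2 CPM.

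The promoters of synaptic genes are textbook cases of repression outside neurons by REST, which binds the RE1 element, and of GC-rich starts bound by factors of the Sp family. RefSeq promoter windows of GRCm38.p6 (250 bases before a start to 50 after it) were at hand for 30 of the 40 genes, in 43 windows. The core RE1 letters, CAGCACC and GGACAG with 2 bases of any kind between them, searched on both strands, were in 0 of the 43 windows and in 0.0365% of all 32851 windows. The GC box GGGCGG was in 24 of the 43, from 24 of the 30 genes, and in 35.7% of all windows. The CRE TGACGTCA was in the window of Syn1 (1.79% of all windows), the NRF1 letters, GCGCA joined to TGCGC, in that of Bsn (0.971%) and the TATA letters TATAAA in 2 windows of Sv2b (13.6%). A match is a match of letters and not a measured site. Shown here are the 150 bases before the start of the 4 genes that passed the test in DKO against WT and have a single RefSeq window with no annotated exon in this stretch, with GC boxes of either strand in capitals. They are Grin1 (chr2:25319188-25319337, minus strand), Rims1 (chr1:22806159-22806308, minus strand), Stx1a (chr5:135023332-135023481, plus strand) and Slc17a7 (chr7:45163771-45163920, plus strand).
Grin1: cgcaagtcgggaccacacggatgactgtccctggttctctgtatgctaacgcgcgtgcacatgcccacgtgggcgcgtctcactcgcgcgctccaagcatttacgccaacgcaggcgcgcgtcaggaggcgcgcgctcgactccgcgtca
Rims1: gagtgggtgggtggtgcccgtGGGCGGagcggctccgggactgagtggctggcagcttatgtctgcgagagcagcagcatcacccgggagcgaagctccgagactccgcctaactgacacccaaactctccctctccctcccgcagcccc
Stx1a: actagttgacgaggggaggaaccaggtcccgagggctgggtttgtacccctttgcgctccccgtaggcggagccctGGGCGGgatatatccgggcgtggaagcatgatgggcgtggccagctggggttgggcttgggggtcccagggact
Slc17a7: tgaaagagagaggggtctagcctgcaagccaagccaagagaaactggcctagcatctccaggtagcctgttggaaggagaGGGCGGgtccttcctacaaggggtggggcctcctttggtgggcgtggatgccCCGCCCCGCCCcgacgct
Of these genes the first 3 rose in DKO and Slc17a7 fell. The stretch of Slc17a7 holds 3 GC boxes, of which 2 overlap, against 1 each in those of Rims1 and Stx1a. That of Grin1 holds none, as its GC box lies elsewhere in its window. The stretches of Shank3 and Rims3, not called in DKO against WT (log2 fold changes of 0.21 and 0.03), also hold several GC boxes. Any link of GC boxes to the direction of change was not tested.

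The comparison of DKO with WT asks what differed when both ATPases were targeted. In the DKO cortex 8 of the 40 synaptic genes rose: the NMDA receptor subunits Grin1 and Grin2b, the AMPA receptor subunit Gria1, the active zone gene Rims1, the neurexin Nrxn3, and Syn1, Snap25 and Stx1a of vesicle release. The vesicular glutamate transporter Slc17a7 (VGLUT1) and Syt11 fell, and 30 genes did not pass the test (edgeR quasi-likelihood test, adjusted p under 0.05 over all genes tested). Over all 15773 genes, 5.61% rose and 6.35% fell in this comparison, 12% in either direction. Of the synaptic genes 35 had a log2 fold change above 0, with a median of 0.266 and a range of −0.55 to 0.87, whereas 51.7% of all genes lay above 0, with a median of 0.008. The 3 DKO libraries lay above the 3 WT libraries for 21 of the 40 genes and below them for 2, against 20.9% and 20.4% of all genes. Without adjustment, p was under 0.05 for 23 of the 40, 21 of them higher in DKO, against 31% and 16.1% of all genes. The summed level of 15 neuronal genes that are not synaptic was also higher in DKO, at 6895 to 7950 CPM against 6285 to 6621 CPM in WT, and its part in the result was not tested. In these bulk samples fewer or more cells of a type and less or more RNA per cell cannot be told apart.

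**Figure D1:**
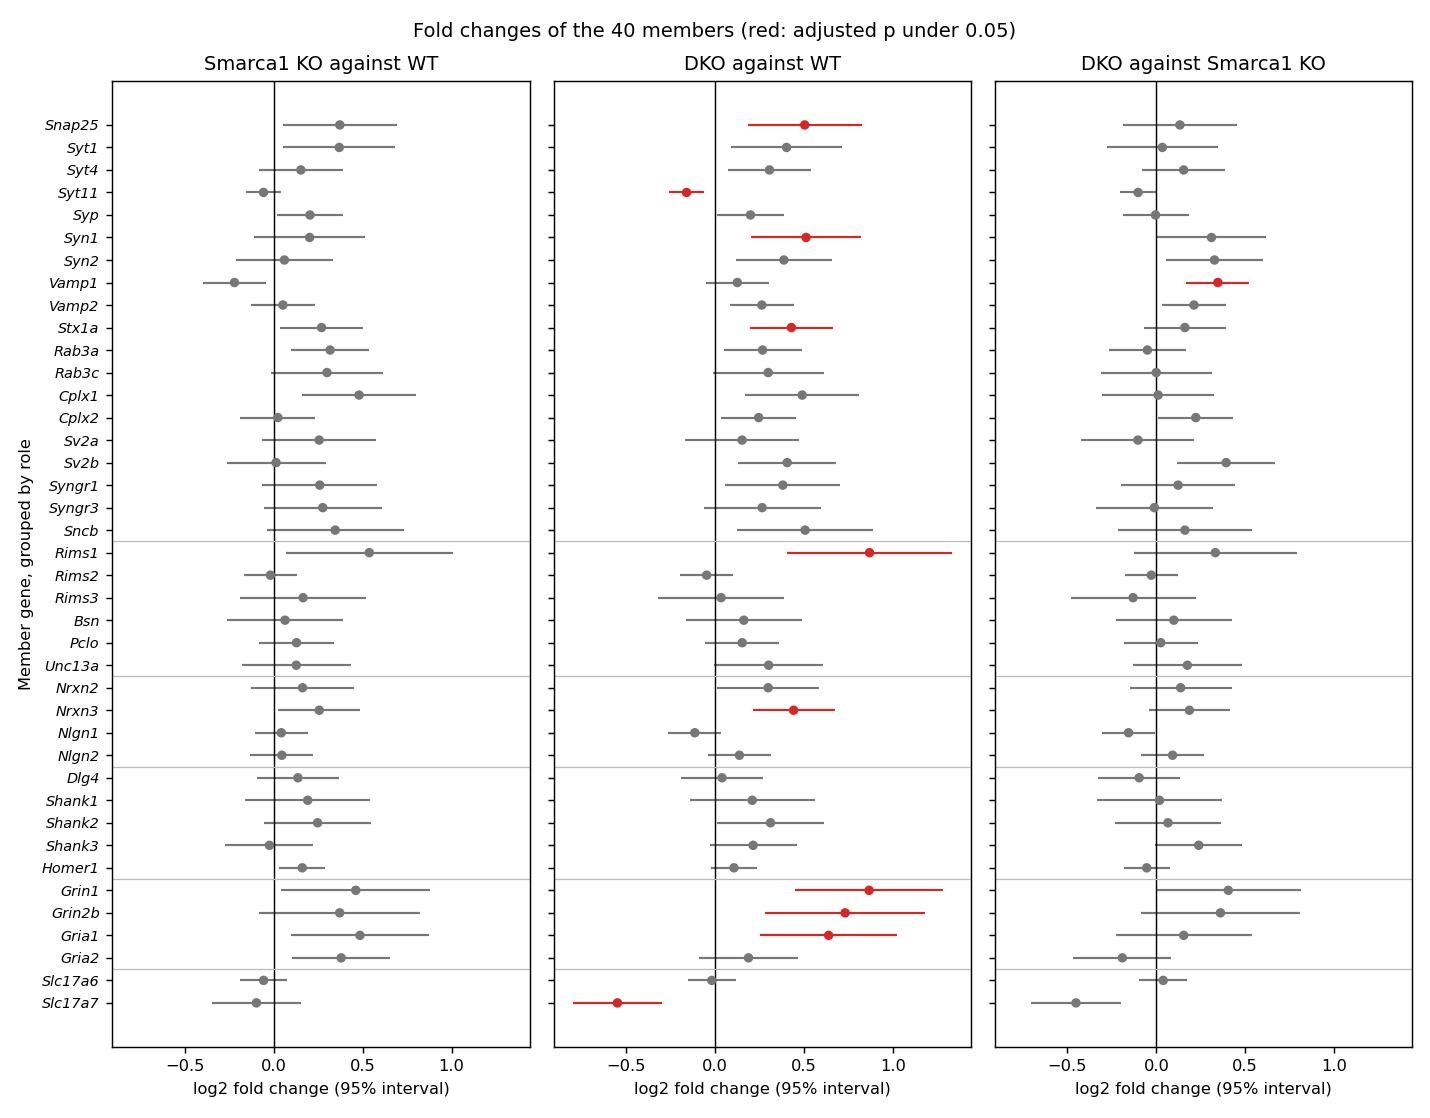
Log2 fold change (x axis) of each of the 40 synaptic genes (y axis, in blocks by role) in the 3 comparisons, as points with 95% intervals from the edgeR fit; red marks an adjusted p under 0.05. In DKO against WT 8 red points lie to the right of 0 and 2 to the left, in DKO against Smarca1 KO 1 point is red, and in Smarca1 KO against WT none is.

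Among the 19 genes of the vesicle and its release machinery, 3 rose and 1 fell in DKO against WT, with a median log2 fold change of 0.306. Snap25 (ENSMUSG00000027273.13; GRCm38 chromosome 2, 136713453 to 136782428), a SNARE of the presynaptic membrane, was 57.9, 57.2 and 58.7 CPM in WT, 62.4, 71.7 and 91.2 CPM in the Smarca1 KO libraries and 67.0, 86.0 and 93.4 CPM in those of DKO. All DKO and Smarca1 KO libraries lay above WT, and those groups overlapped each other. Its log2 fold change in DKO against WT was 0.50 (SE 0.14, adjusted p = 0.0494). Stx1a (ENSMUSG00000007207.10; chromosome 5, 135023482 to 135051100), the syntaxin that pairs with Snap25 in the SNARE complex, was 33.1, 33.8 and 35.3 CPM in WT, 39.6, 35.7 and 48.0 CPM in the Smarca1 KO libraries and 41.3, 46.6 and 49.7 CPM in those of DKO. Here too every DKO library was above every WT library, and the log2 fold change was 0.43 (SE 0.10, adjusted p = 0.0296).

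Syn1 (ENSMUSG00000037217.15; chromosome X, 20860511 to 20921004) encodes synapsin I, which tethers vesicles to each other in the resting pool. It was 59.5, 59.4 and 55.8 CPM in WT, 59.6, 58.6 and 83.1 CPM in the Smarca1 KO libraries and 69.8, 92.7 and 86.7 CPM in those of DKO, with a log2 fold change of 0.51 in DKO against WT (SE 0.14, adjusted p = 0.0422). Smarca1 KO replicates 1 and 2 were at the WT level of Syn1 and replicate 3 within the DKO range. Syt11 (ENSMUSG00000068923.14; chromosome 3, 88744700 to 88775164), a synaptotagmin that is not a calcium sensor for release, went the other way. It was 374.1, 387.0 and 375.0 CPM in WT, 341.8, 376.0 and 374.0 CPM in the Smarca1 KO libraries and 346.8, 338.6 and 331.3 CPM in those of DKO, a fall by 0.16 on the log2 scale in DKO against WT (SE 0.045, adjusted p = 0.0472). The DKO libraries of Syt11 did not reach the WT range, and Smarca1 KO replicate 1 lay among them.

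The other 15 genes of this role did not pass the test in DKO against WT, and their log2 fold changes lay from 0.13 for Vamp1 to 0.51 for Sncb (beta-synuclein; adjusted p = 0.0788). The nearest to the threshold was Cplx1, complexin 1, which clamps the SNARE complex until calcium enters. It was 32.2, 30.1 and 29.1 CPM in WT, 34.2, 44.5 and 49.0 CPM in the Smarca1 KO libraries and 35.0, 45.0 and 48.2 CPM in those of DKO. The log2 difference of Cplx1 was 0.49 in DKO (adjusted p = 0.0531) and 0.48 in Smarca1 KO (adjusted p = 0.152) against WT, and the values of the last 2 groups were nearly alike. Syt1, the calcium sensor of fast release, was 80.5 to 91.2 CPM in WT and 96.8 to 129.3 CPM in DKO (adjusted p = 0.0868). Vamp2, the most abundant of the 40 in WT by TPM, was 163.6 to 168.6 CPM in WT and 177.1 to 214.4 CPM in DKO (adjusted p = 0.0623). Syp, synaptophysin, a standard marker of vesicles, was 99.3 to 103.0 CPM in WT and 105.6 to 123.4 CPM in DKO (adjusted p = 0.137).

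Among the rest, Syn2 (synapsin II) was 37.7 to 42.1 CPM in WT, 39.8 to 43.8 CPM in Smarca1 KO and 42.0 to 62.3 CPM in DKO, where replicate 1 overlapped WT (log2 difference 0.39, adjusted p = 0.0659). Sv2b was 17.4 to 18.9 CPM in WT and 20.1 to 25.9 CPM in DKO (0.41, adjusted p = 0.0596), and its relative Sv2a was 90.0 to 95.8 and 85.3 to 113.8 CPM (0.15, adjusted p = 0.501). The vesicle GTPases Rab3a and Rab3c had log2 differences of 0.27 and 0.30 (adjusted p = 0.0998 and 0.178). Rab3a libraries of DKO lay above WT, while those of Rab3c overlapped with them. Syngr1 and Syngr3, the synaptogyrins of the vesicle membrane, had 0.38 and 0.26 (adjusted p = 0.108 and 0.251), Cplx2, the complexin with the higher level in WT by TPM, 0.25 (adjusted p = 0.112), and Syt4, a synaptotagmin of dense-core vesicles, 0.31 (adjusted p = 0.082).

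Of the 6 active zone genes 1 passed the test in DKO against WT. Rims1 (ENSMUSG00000041670.16; chromosome 1, 22286251 to 22805994), which links vesicle Rab3 to calcium channels at the release site, was 13.47, 10.82 and 11.67 CPM in WT, 18.3, 12.1 and 21.9 CPM in the Smarca1 KO libraries and 18.5, 26.8 and 20.6 CPM in those of DKO. Its DKO libraries were all above WT, at a log2 fold change of 0.87 (with an SE of 0.21, adjusted p = 0.0279), and Smarca1 KO replicate 2 stayed at the WT level. The 2 related genes Rims2 and Rims3 had log2 fold changes of −0.05 and 0.03 (adjusted p = 0.669 and 0.909). The large scaffolds Bsn (bassoon) and Pclo (piccolo) and the priming factor Unc13a had 0.16, 0.15 and 0.30 (adjusted p = 0.482, 0.296 and 0.168).

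Of the 4 adhesion genes, the presynaptic neurexin Nrxn3 (ENSMUSG00000066392.11; chromosome 12, 88722876 to 90334935) passed the test. It was 89.9, 79.0 and 87.1 CPM in WT, 98.1, 93.5 and 114.4 CPM in the Smarca1 KO libraries and 99.0, 127.2 and 121.7 CPM in those of DKO, with a log2 fold change of 0.44 in DKO against WT (SE 0.10, adjusted p = 0.0259). Both mutant groups lay above WT for Nrxn3. Nrxn2 had a log2 fold change of 0.30 (adjusted p = 0.146). Their postsynaptic partners, the neuroligins Nlgn2 and Nlgn1, had 0.14 and −0.11 (adjusted p = 0.267 and 0.276).

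None of the 5 postsynaptic scaffold genes passed the test in DKO against WT, although all 5 log2 fold changes were above 0 (median 0.209). Dlg4 was 209.1 to 228.1 CPM in WT and 195.5 to 241.2 CPM in DKO, so the groups overlapped, and its 95% interval ran from −0.19 to 0.27. Shank2 was the highest at 0.31 (adjusted p = 0.146), Shank3 and Shank1 had 0.21 each (adjusted p = 0.215 and 0.395), and Homer1 had 0.11 (adjusted p = 0.242).

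The glutamate receptor subunits had the highest median of the 6 roles, 0.685 over 4 genes, and 3 of the 4 rose in DKO against WT. Grin1 (ENSMUSG00000026959.13; chromosome 2, 25291181 to 25319187), the obligatory subunit of NMDA receptors, was 18.002, 17.1 and 18.2 CPM in WT, 22.1, 19.1 and 32.3 CPM in the Smarca1 KO libraries and 25.9, 34.7 and 36.5 CPM in those of DKO. The log2 fold change of Grin1 was 0.87 (SE 0.18, adjusted p = 0.0194), and all Smarca1 KO and DKO libraries were above WT. Grin2b (ENSMUSG00000030209.14; chromosome 6, 135713233 to 136173511), the NMDA receptor subunit that prevails before birth, was 87.1, 74.3 and 76.2 CPM in WT, 80.6, 89.7 and 137.9 CPM in the Smarca1 KO libraries and 101.1, 147.9 and 145.9 CPM in those of DKO. It rose by 0.73 on the log2 scale (SE 0.20, adjusted p = 0.0448), and Smarca1 KO ran from within the WT range to near the highest DKO library.

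Gria1 (ENSMUSG00000020524.16; chromosome 11, 57011387 to 57330244), an AMPA receptor subunit, was 79.3, 68.4 and 65.9 CPM in WT, 86.3, 89.6 and 123.6 CPM in the Smarca1 KO libraries and 85.8, 113.8 and 132.9 CPM in those of DKO. Its log2 fold change in DKO against WT was 0.64 (SE 0.17, adjusted p = 0.0418), with every mutant library above WT. Gria2, the AMPA receptor subunit that keeps calcium out of the channel, did not pass the test in any comparison. It was 321.2, 324.4 and 298.6 CPM in WT, 348.7, 411.5 and 468.4 CPM in the Smarca1 KO libraries and 296.8, 372.1 and 406.8 CPM in those of DKO. DKO replicate 1 was below all WT libraries of Gria2, and the log2 difference of DKO from WT was 0.19 (adjusted p = 0.329).

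The vesicular glutamate transporters, which load vesicles of excitatory neurons, included 1 gene that fell and none that rose in DKO against WT. Slc17a7 (VGLUT1; ENSMUSG00000070570.5; chromosome 7, 45163949 to 45176142) was 66.6, 71.0 and 64.9 CPM in WT, 57.3, 71.0 and 61.2 CPM in the Smarca1 KO libraries and 38.6, 46.7 and 53.0 CPM in those of DKO. All 3 DKO libraries were below all 6 others, and the log2 fold change against WT was −0.55 (SE 0.11, adjusted p = 0.0174). Slc17a6 (VGLUT2), on the same chromosome, was 71.1, 72.3 and 62.0 CPM in WT, 65.4, 63.7 and 68.5 CPM in the Smarca1 KO libraries and 67.5, 68.6 and 66.8 CPM in those of DKO. Its log2 difference of DKO from WT was −0.02, with a 95% interval of −0.15 to 0.12 (adjusted p = 0.868).

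**Figure D2:**
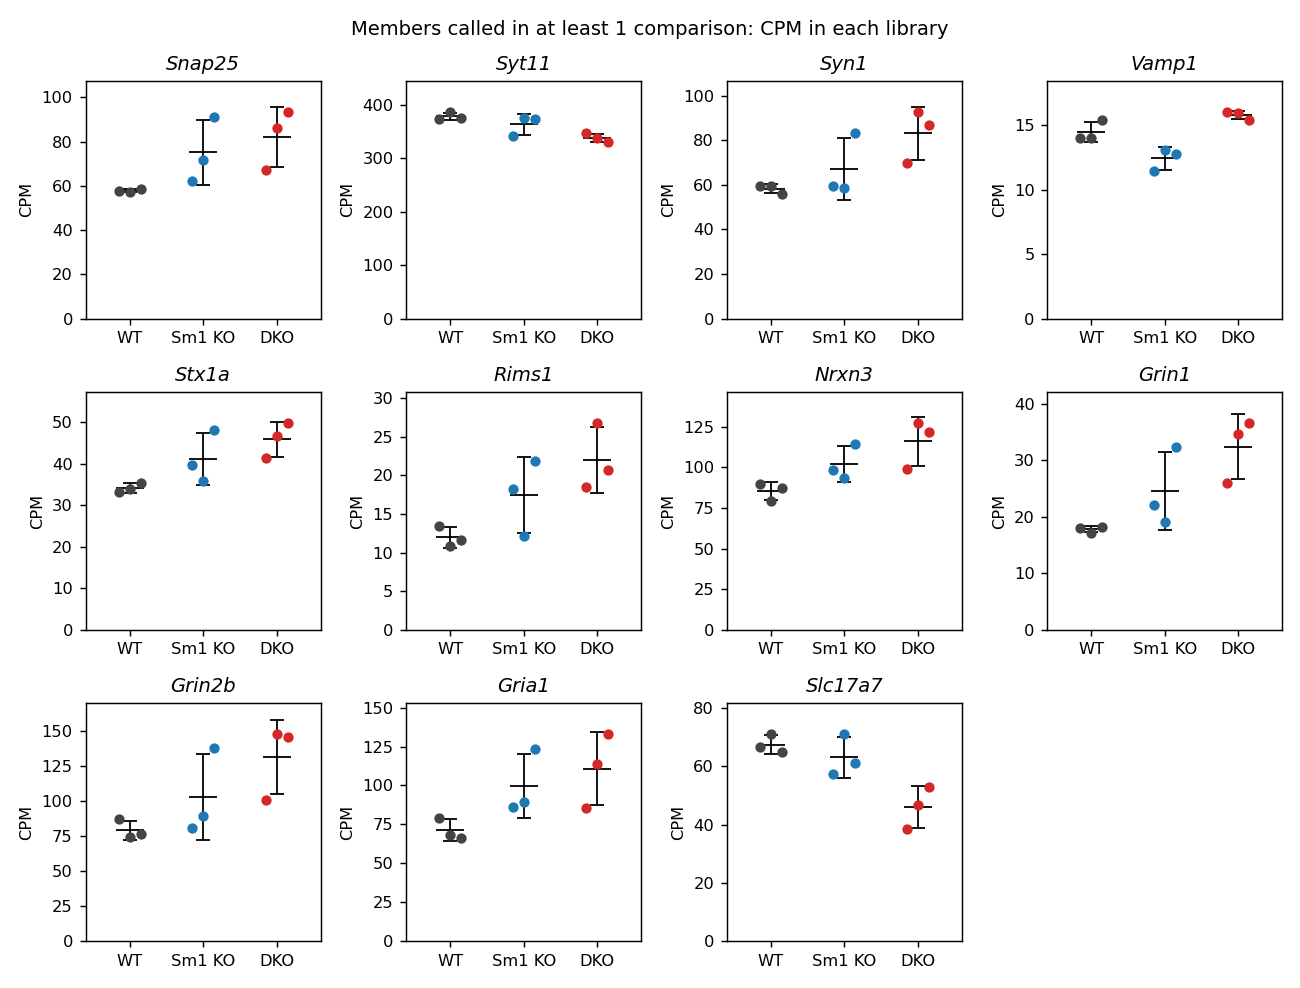
CPM (y axes, from 0) of the 11 synaptic genes that passed the test in at least 1 comparison, in the 3 libraries of WT, of Smarca1 KO (Sm1 KO) and of DKO; points are libraries and bars the mean ± SD. The WT points lie close together for most genes, of the 8 genes that rose in DKO the Smarca1 KO points lie above all WT points for 5 (Snap25, Stx1a, Nrxn3, Grin1 and Gria1) and overlap them for Syn1, Rims1 and Grin2b, and Slc17a7 is lowest in DKO, at 38.6 to 53.0 CPM.

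The count of genes that rose in DKO against WT depended on single libraries. It was 0 without any 1 of the WT libraries, without DKO replicate 2 or without DKO replicate 3, and 18 without Smarca1 KO replicate 3 or without DKO replicate 1, where the fit takes its spread from the remaining 8 libraries. Leaving out both libraries highest in meninges markers, Smarca1 KO replicate 1 and DKO replicate 1, gave 24 genes that rose and 2 that fell. This setting does not even out the meninges markers. The DKO libraries kept had 455 and 407 CPM of them, against 590 to 705 CPM in WT. DKO replicate 1 also had the lowest level of its group for 37 of the 40 genes. The 8 genes were among the 18 and the 24. The shares of all genes called in these settings are not given here. Whether such swings are particular to the synaptic genes was not tested. The number that fell was between 0 and 2 over these settings. Of the 17 alternatives, Slc17a7 was called in 12, Gria1 in 10, Snap25 in 8 and Syt11 in 7. Syn1, Stx1a, Rims1, Nrxn3, Grin1 and Grin2b were called in 11 each. None of the 10 called genes changed sign in any of the 17 alternative settings. They were picked from the same libraries that these settings refit in whole or in part, so a kept sign is little support. With the mean level of 4 Y-linked genes as a covariate, 0 of the 40 were called and their median was −0.019. That mean, in log2 of CPM plus 1, was 5.962 to 6.022 in WT, 5.915 to 6.019 in Smarca1 KO and 5.825 to 5.887 in DKO. Y-linked RNA was thus present in every library, over a narrow range. The groups accounted for 0.772 of the covariate's variance (R2), so it and the genotype cannot be told apart.

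The synaptic genes varied together from library to library within the mutant groups. Smarca1 KO replicate 3 had the highest level of its group for 37 of the 40 genes and exceeded all WT libraries for 36, whereas Smarca1 KO replicates 1 and 2 each exceeded WT for 18. DKO replicate 1 had the lowest level of its group for 37 of the 40 and exceeded WT for 21, against 34 each for DKO replicates 2 and 3. The median coefficient of variation of the 40 genes was 4.6% in WT, 15.9% in Smarca1 KO and 13.6% in DKO. Over all genes above 1 CPM it was 4.06%, 7.93% and 6.36%. The highest of all 9 libraries was Smarca1 KO replicate 3 for 18 genes, DKO replicate 3 for 11 and DKO replicate 2 for 7.

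**Figure D3:**
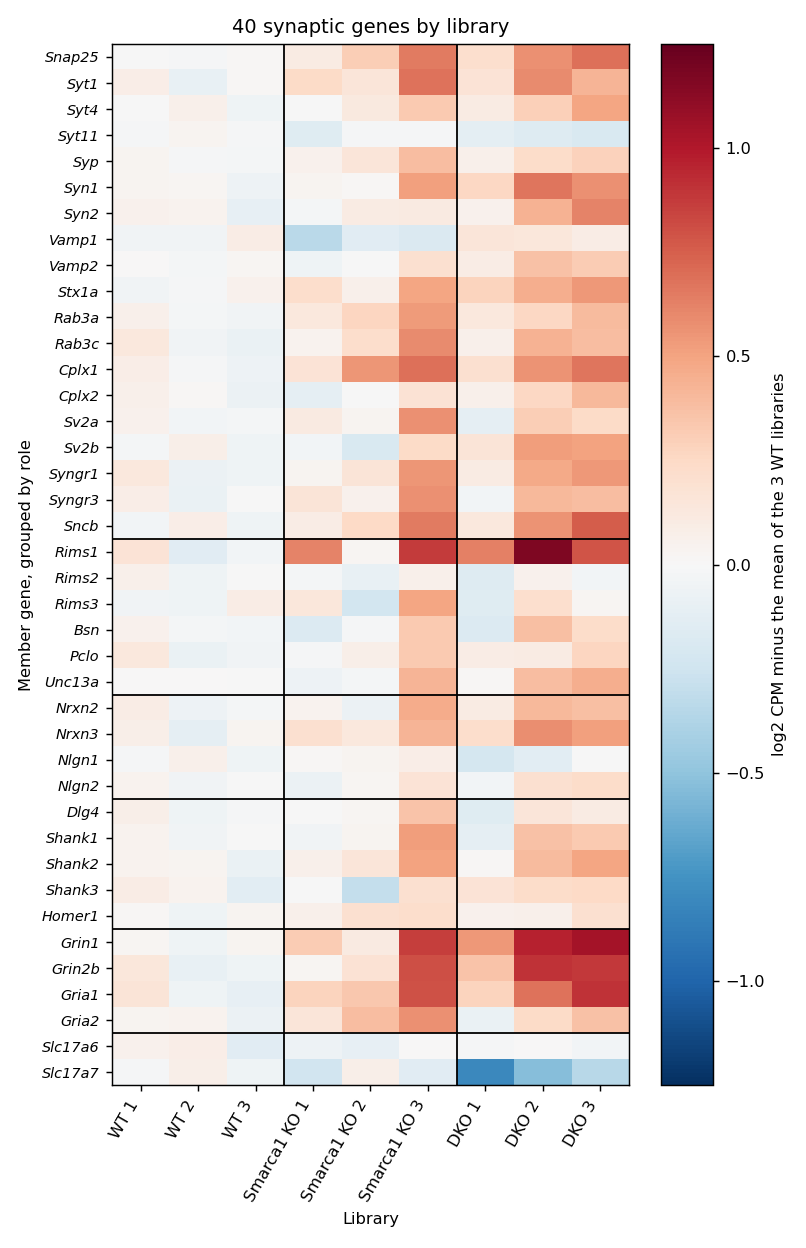
Log2 CPM of the 40 synaptic genes (rows, in blocks by role) in the 9 libraries (columns), relative to the mean of the 3 WT libraries; red is higher and blue lower. The columns of Smarca1 KO replicate 3 and DKO replicates 2 and 3 are red for most rows, those of Smarca1 KO replicates 1 and 2 and DKO replicate 1 are paler, and the row of Slc17a7 is blue in all DKO libraries.

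Genes of neurons that are not synaptic showed a like order of libraries. The mean log2 deviation of the 40 synaptic genes from their mean over the 9 libraries was −0.10, −0.17 and −0.18 in WT, −0.10, −0.07 and 0.26 in Smarca1 KO and −0.08, 0.21 and 0.23 in DKO. For 15 neuronal genes such as Tubb3, Dcx and Map2 it was −0.09, −0.17 and −0.15 in WT, −0.05, −0.05 and 0.24 in Smarca1 KO and −0.02, 0.16 and 0.12 in DKO. These 15 summed to 6679 to 8364 CPM in Smarca1 KO, and 3 of them rose (Ina, Stmn2 and Gap43) and 1 fell (Nhlh2) in DKO against WT.

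Summed markers of progenitors were lower in every DKO library than in any WT library. The 14 radial glia genes summed to 3177 to 3224 CPM in WT, 2667 to 2975 CPM in the Smarca1 KO libraries and 2831 to 3078 CPM in those of DKO, with 2 higher and 5 lower called in DKO against WT. The 9 genes of intermediate progenitors summed to 965 to 1001 CPM, 821 to 990 CPM and 808 to 836 CPM, with 4 lower. Markers of ventral interneurons, another class of neuron, summed to 981 to 1137 CPM in WT, 1067 to 1156 CPM in the Smarca1 KO libraries and 1152 to 1395 CPM in those of DKO, and 4 of 11 rose in DKO against WT. Markers of Cajal-Retzius cells, early-born neurons of the cortical surface, summed to 371 to 395 CPM in WT, 347 to 458 CPM in the Smarca1 KO libraries and 436 to 461 CPM in those of DKO, so that every DKO library lay above those of WT. Of the 7, Calb2 and Trp73 rose and Nhlh2, which is also among the 15 neuronal genes, fell in DKO against WT, and the median log2 fold change was 0.394, against 0.266 for the 40 synaptic genes. The 9 projection neuron genes summed to 1797 to 1994 CPM in WT, 1779 to 2341 CPM in the Smarca1 KO libraries and 1581 to 2022 CPM in those of DKO, with 1 lower. Globins and other blood genes summed to 1346 to 1809 CPM in WT, 1050 to 1573 CPM in the Smarca1 KO libraries and 867 to 1427 CPM in those of DKO, and 1 of 8, Hba-a1, fell in DKO against WT. The 8 microglia genes summed to 38.2 to 41.3, 40.1 to 46.1 and 51.7 to 64.6 CPM, higher in every DKO library than in any other. Cx3cr1, Trem2 and C1qa rose in DKO against WT, with all 8 above 0 and a median log2 fold change of 0.589, and Cx3cr1 and Trem2 rose in DKO against Smarca1 KO. No gene of the endothelial or diencephalic lists was called in DKO against WT. Apart from the diencephalic gene Olig3, none of these marker genes was at 0 in any library, and the part of the markers in the synaptic result was not tested.

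**Figure D4:**
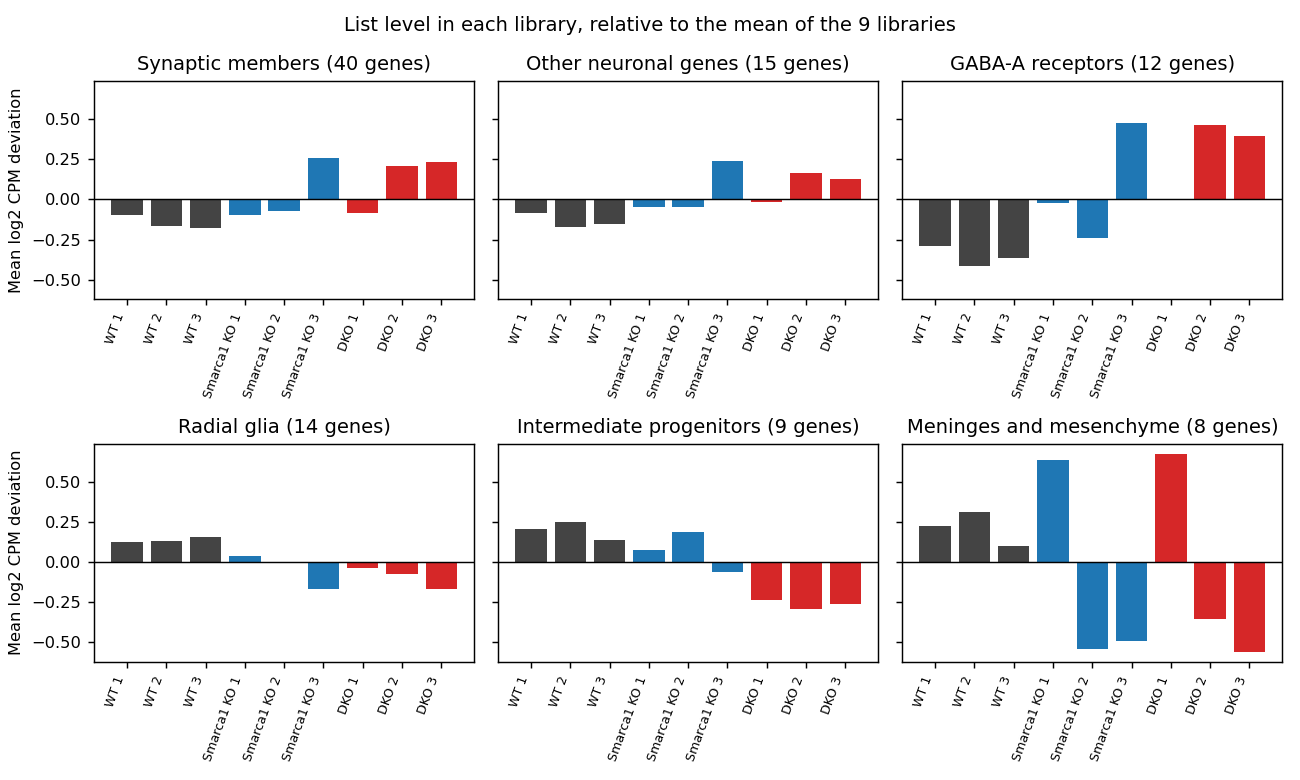
Mean log2 CPM of 6 gene lists in each of the 9 libraries, as bars of the deviation from the mean of all libraries (y axis). The bars of the 40 synaptic genes, the 15 other neuronal genes and the 12 GABA-A receptor genes are highest in Smarca1 KO replicate 3 and DKO replicates 2 and 3, the meninges bars are highest in Smarca1 KO replicate 1 and DKO replicate 1, and those of intermediate progenitors are lowest in the 3 DKO libraries.

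Set against the summed level of the 15 neuronal genes, a ratio chosen after the values were seen, the 40 synaptic genes together were 61.3%, 61.5% and 61.3% of that sum in WT, 59.3%, 59.9% and 61.0% in Smarca1 KO and 57.6%, 61.2% and 61.9% in DKO. The groups overlapped on this scale. Each of the 10 genes called in DKO against WT, and so picked for differing, had DKO libraries apart from those of WT on it, whereas Vamp1, called against Smarca1 KO, overlapped between WT and DKO. Grin1 was 0.272%, 0.270% and 0.289% of the neuronal sum in WT and 0.376%, 0.439% and 0.460% in DKO, with Smarca1 KO overlapping both at 0.331%, 0.275% and 0.386%. Grin2b was 1.17% to 1.32% in WT and 1.47% to 1.87% in DKO. Slc17a7 was 1.01% to 1.12% in WT and 0.559% to 0.667% in DKO. No test was made on these ratios.

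Smarca1 KO against WT compares groups that differ by label in the Smarca1 genotype, with their Smarca5 alleles not given. Here 0 of the 40 synaptic genes were called in edgeR's test, against 0.336% of all genes. DESeq2 called 2 that were higher, Cplx1 and Gria2. Of the 40, 34 had a log2 fold change above 0, with a median of 0.178 (0.010 for all genes). The groups did not overlap for 13 genes that were higher in Smarca1 KO and for 1, Vamp1, that was lower, against 12.5% and 13.6% of all genes. Without adjustment, p was under 0.05 for 13 genes, 12 of them higher, against 18.9% and 9.33% of all genes. The 4 receptor subunits had log2 differences between 0.37 and 0.48 here (adjusted p between 0.174 and 0.343). Without Smarca1 KO replicate 3 the median over the 40 genes was 0.045 and 25 genes lay above 0, against 0.178 and 34 with it. Without both libraries highest in meninges markers 4 genes passed the test as higher, Snap25, Rab3a, Cplx1 and Gria2.

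DKO against Smarca1 KO compares groups that share the Smarca1 genotype and differ in Cre. The only synaptic gene called was Vamp1, against 1.73% of all genes that rose and 2.66% that fell (4.39% in all). Vamp1 (ENSMUSG00000030337.16; chromosome 6, 125215551 to 125245964), a vesicle SNARE of fast-firing neurons and motor terminals, was 11.4, 13.1 and 12.8 CPM in the Smarca1 KO libraries, 16.002, 15.9 and 15.4 CPM in those of DKO and 14.0, 14.0 and 15.4 CPM in those of WT. DKO lay above Smarca1 KO by 0.35 on the log2 scale (SE 0.079, adjusted p = 0.0417) and Smarca1 KO was the lowest group, with a log2 difference from WT of −0.22 (adjusted p = 0.203). The call of Vamp1 held in 2 of the 17 alternatives (the other size factors and DESeq2), and leaving out any 1 of the 9 libraries ended it, with adjusted p between 0.0513 and 0.126 and log2 fold changes between 0.29 and 0.39. Its gene overlaps Cd27 and Tapbpl on the opposite strand.

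Of the 40 genes 27 lay above 0 in DKO against Smarca1 KO, with a median of 0.095 (0.004 for all genes, 51.1% of them above 0). The groups did not overlap for 1 gene that was higher, Vamp1, and 2 that were lower, Nlgn1 and Slc17a7, against 9.72% and 10.7% of all genes. Without adjustment, p was under 0.05 for 9 of the 40, 6 of them higher in DKO, against 18.4% and 8.84% of all genes. Slc17a7 came nearest to the threshold of the genes not called, at −0.45 (SE 0.11, adjusted p = 0.0556). The genes that rose in DKO against WT had log2 differences of 0.40 (Grin1), 0.36 (Grin2b), 0.33 (Rims1), 0.31 (Syn1), 0.19 (Nrxn3), 0.16 (Stx1a), 0.15 (Gria1) and 0.13 (Snap25) here, with adjusted p between 0.270 and 0.707. The 2 comparisons with DKO share its libraries. Without Smarca1 KO replicate 3 the median was 0.232, 35 genes lay above 0 and 3 passed the test as higher, Syn1, Sv2b and Grin1. Without DKO replicate 1 those that passed were Syn2 and Sv2b. The call of Slc17a7 as lower, missed here, was made in alternatives that included DESeq2, no filter on low counts and leaving out DKO replicate 3.

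Other genes of the same pathways, from lists of their relatives and partners, also lay mostly above 0 in DKO against WT. Of 53 further genes of release and the vesicle 8 rose and 1 fell (median 0.290). They include Synpr (synaptoporin, a relative of synaptophysin), which was 6.43 to 8.597 CPM in WT, 6.93 to 11.8 CPM in the Smarca1 KO libraries and 19.8 to 21.7 CPM in those of DKO. Its log2 fold change was 1.45 against WT (SE 0.17, adjusted p = 0.00228) and 1.14 against Smarca1 KO (SE 0.17, adjusted p = 0.00716). The endocytic adaptor Bin1 rose by 0.52 (adjusted p = 0.00355) and the calcium channel subunit Cacna2d3 by 0.48 (adjusted p = 0.0245) in DKO against WT.

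Among 34 further adhesion genes 4 rose and 2 fell in DKO against WT (median 0.136). Cbln4, a secreted partner of neurexins, was 1.21 to 1.42 CPM in WT, 0.955 to 2.15 CPM in the Smarca1 KO libraries and 3.33 to 4.27 CPM in those of DKO, and it rose against both (adjusted p = 0.0097 and 0.0395). Lrfn2, a postsynaptic partner of PSD-95, rose by 0.73 against WT (adjusted p = 0.0216). The receptor phosphatase Ptprf was 425 to 454 CPM in WT, 369 to 373 CPM in the Smarca1 KO libraries and 324 to 332 CPM in those of DKO. It fell in each comparison, by 0.26 in Smarca1 KO against WT (adjusted p = 0.0225), by 0.18 in DKO against Smarca1 KO (adjusted p = 0.0308) and by 0.44 in DKO against WT (adjusted p = 0.000501).

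Of 16 further scaffold genes 1 rose and 2 fell in DKO against WT (median 0.205). Camk2b, the beta subunit of the calcium/calmodulin-dependent kinase of the postsynaptic density, rose by 0.80 (adjusted p = 0.0275). Dlg1 fell by 0.19 (adjusted p = 0.0131) and Homer3 by 0.34 (adjusted p = 0.0112), and Homer3 also fell by 0.27 against Smarca1 KO (adjusted p = 0.044). Of 29 further glutamate receptor genes 2 rose and 1 fell, with a median of 0.374: Grin3a (0.99, adjusted p = 0.0452), an NMDA receptor subunit, Cacng8 (0.57, adjusted p = 0.0203), an AMPA receptor auxiliary subunit, and the kainate receptor subunit Grik2 (−0.27, adjusted p = 0.014).

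Receptors for GABA, the transmitter that excites young cortical neurons, had a median of 0.725 over 12 subunits in DKO against WT, and all 12 log2 fold changes were above 0. The DKO and WT libraries did not overlap for 11 of the 12, and 2 subunits were called, Gabra4 (0.88, SE 0.21, adjusted p = 0.0274) and Gabra5 (0.86, SE 0.24, adjusted p = 0.0453). Their median was 0.466 in Smarca1 KO against WT and 0.167 in DKO against Smarca1 KO, with 0 called in both. Of REST and 7 corepressors, which keep synaptic genes off outside neurons, 1 fell in DKO against WT, the demethylase gene Kdm1a, by 0.18 (adjusted p = 0.0237), and none rose (median −0.111). Rest itself was 36.4 to 38.1 CPM in WT, 27.5 to 33.1 CPM in the Smarca1 KO libraries and 30.8 to 35.6 CPM in those of DKO.

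Transcripts of the synaptic genes were compared by their share of their gene's TPM, over the 114 transcripts of 34 genes with a mean share between 5% and 95%. In DKO against WT the shares did not overlap for 6 transcripts that were higher and 11 that were lower, in all 17 of 114, against 13.8% of 29346 transcripts of all genes. The counts were 6 and 8 in DKO against Smarca1 KO (11.4% of all) and 8 and 7 in Smarca1 KO against WT (13% of all). In each comparison the synaptic genes were thus near the share of all genes, and nothing particular to them is read from these counts. Shares within a gene make up a whole, so rises and falls among its transcripts are not separate observations. Salmon divides reads among transcripts of a gene by estimate, and no test was made on shares.

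Of these, 3 transcripts of Gria2, chosen after their values were seen, are described because the sum over the gene did not pass the test. Gria2-202, a coding transcript, had 31.1%, 31.1% and 29.2% of the gene's TPM in WT, 30.2%, 32.7% and 30.97% in Smarca1 KO and 34.6%, 35.7% and 35.9% in DKO. Gria2-204, which retains an intron, had 17.4%, 17.6% and 17.2% in WT, 16.9%, 16.4% and 15.2% in Smarca1 KO and 15.04%, 13.6% and 12.6% in DKO. Gria2-203, annotated as a target of nonsense-mediated decay, had 15.4% to 16.3% in WT, 14.5% to 16.4% in Smarca1 KO and 11.9% to 13.1% in DKO. The share of Gria2-202 was thus highest, and those of the other 2 lowest, in the 3 DKO libraries. Another coding transcript, Gria2-201, and another with a retained intron, Gria2-206, overlapped between DKO and WT. Slc17a7 had a like pair, also chosen after its values were seen: the coding Slc17a7-201 had 79.4% to 82.1% in WT, 77.7% to 83.2% in Smarca1 KO and 84.3% to 84.8% in DKO, and the retained-intron transcript Slc17a7-204 6.71% to 9.98%, 4.74% to 11.03% and 3.70% to 4.47%. Slc17a7-203, which also retains an intron, overlapped between DKO and WT, with means of 9.95% and 10.05%. Syn2-206, a non-coding transcript of Syn2 chosen in the same way, was listed at 0 in all 3 WT libraries and in Smarca1 KO replicate 2, at 7.38% and 22.5% in Smarca1 KO replicates 1 and 3 and at 18.2%, 14.4% and 9.28% in DKO. Syn2 is a gene that overlaps another on its own strand.

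**Figure D5:**
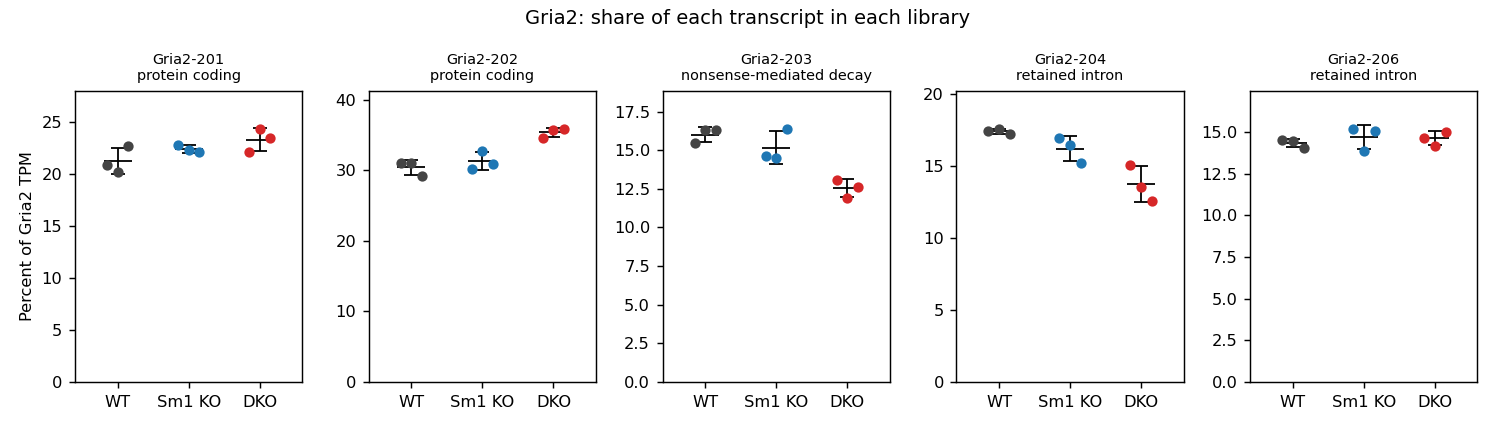
Share of each of 5 Gria2 transcripts in the gene's TPM (percent, y axes from 0) in the 3 libraries of WT, Smarca1 KO (Sm1 KO) and DKO; points are libraries and bars the mean ± SD. Gria2-202 is higher in DKO, at 34.6% to 35.9%, Gria2-203 and Gria2-204 are lower, and Gria2-201 and Gria2-206 overlap between DKO and WT.

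Sequence shared between genes was small for the 40. The largest share of a gene's 31-base words found in transcripts of another gene was 4.86%, for Nrxn2, and 11 genes shared none. Of the 40, 13 overlap another gene with deposited values, and 2 of these, Syn2 and Syt1, overlap it on the same strand. The sources used here do not say whether Salmon's counting used strand, and reads of such pairs may be mixed.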

How the data were processed

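RNA of 9 libraries of E13.5 mouse cortex was analysed, in 3 groups of 3 set by the genotype in the labels. The 40 genes, their roles and the other lists were chosen with earlier results of these data known. The authors deposited 1 table of transcripts per library, which the submitters' processing notes credit to Salmon 1.4.0. Those notes also name DESeq2, with no role. The tables give, per the file headers, estimated counts (reads divided among transcripts, not normalised), TPM (scaled within a library) and effective lengths. Libraries were stranded, per the labels' protocols. The sources used here give neither the index nor the strand setting. Of 116546 transcripts 115977 matched GENCODE M21 (GRCm38), and the other 569 held 0.104% to 0.116% of the counts. The estimated counts were summed to genes and rounded.

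Tests were by edgeR 4.0.16 (R 4.3.3), quasi-likelihood F test, with all 9 libraries in 1 fit, TMM scaling (factors 0.991 to 1.02) and filterByExpr, which kept 15773 genes. The p-values were adjusted over all of these by the Benjamini-Hochberg method, and the threshold for a call was 0.05. The standard error is the size of the log2 fold change divided by the square root of F. The biological coefficient of variation was 10.2%. Counting error is small at 27466225 to 46007718 counts per library, so the spread between libraries limits the precision. No pair of replicates agreed within sampling noise (chi-square per gene 3.63 to 22.6). The scripts were tested on simulated data. Described in full were the members called in any comparison and, per comparison, the uncalled member with the smallest p. From each other list up to 3 called genes with the smallest p were named, and other genes were named after their values were seen. Motifs were searched as letters in RefSeq promoter windows (GRCm38.p6), and 10 members had none there. The 17 alternatives were RLE size factors, DESeq2 1.42.0, no filter on low counts, the 2 compared groups alone, the replicate number as a block, offsets from effective lengths, a Y-linked covariate, and leaving out each library or both libraries highest in meninges markers.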

Additional observations from a re-analysis of the deposited data

How the results depend on the processing

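Over the 17 alternatives no called gene changed sign, which is little support, as the genes were picked from the same libraries. In DKO against WT, where 8 of the 40 genes rose and 2 fell, 15 rose with DESeq2, 19 with the 2 groups fitted alone and 24 without both libraries highest in meninges markers. With the Y-linked covariate, which cannot be told apart from the genotype (R2 by group 0.772), 0 rose and 0 fell. With no filter on low counts, with the replicate block and with effective-length offsets 1 fell. Leaving out 1 library gave 0 to 18 that rose and 0 to 2 that fell: 0 rose without any WT library, DKO replicate 2 or DKO replicate 3, and 18 without Smarca1 KO replicate 3 or DKO replicate 1.

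In DKO against Smarca1 KO, where 1 rose and 0 fell, 0 rose with no filter, the 2 groups alone, the replicate block, effective-length offsets or the Y-linked covariate, and 1 fell with DESeq2, with no filter and with the block. Leaving out 1 library gave 0 to 3 that rose and 0 to 1 that fell. In Smarca1 KO against WT, where 0 were called, 2 rose with DESeq2, 4 without both libraries highest in meninges markers and 0 on leaving out any 1 library. Apart from fewer samples where libraries were left out, the cause was not tested. The counts of this section stand without the shares of all genes called in the same settings.

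Same-numbered libraries correlated between −0.048 and 0.335 over 9 pairs, not all above 0.1, so the number was not used as a pairing in the main fit. The value of 0.335 was that of Smarca1 KO replicate 1 with DKO replicate 1, both high in meninges markers. What that pair shares was not tested. With the replicate block, DKO against WT gave 11 genes that rose and 1 that fell, DKO against Smarca1 KO 0 and 1, and Smarca1 KO against WT 0 and 0.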
